A study of Mus musculus with 14 samples.

Results

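The genes described here are 10 transcription factors of endothelial identity, followed across every RNA library of a study of mouse carotid arteries. They are the SOX genes Sox7, Sox17 and Sox18, the ETS genes Erg, Fli1, Ets1, Ets2 and Elk3, the GATA gene Gata2 and the basic helix-loop-helix gene Tal1. They were chosen by name from a gene table of 35275 genes, and all 10 were found there. The study deleted Poldip2, a gene named for its protein's interaction with DNA polymerase delta, either in the endothelium or in smooth muscle. All mice were C57BL/6, 10 weeks old and on standard chow. The lumen of each carotid artery was flushed with 150 µL of Qiazol, a lysis reagent, and the flush and the artery that remained were sequenced as separate RNA fractions. The flushed fraction comprised 4 control libraries from Poldip2-floxed littermates and 4 libraries from the endothelial knockout, titled Poldip2-EC-/-. The left-over fraction, media and adventitia, comprised 2 libraries titled Poldip2-floxed and 4 titled Poldip2-SMC-/-. The Cre drivers, and whether each repeat was a separate animal, are not stated in the labels, so p-values measure only the spread between these libraries.

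SOXF factors, the group formed by Sox7, Sox17 and Sox18, bind DNA through an HMG box and act in arterial specification and vessel development. ETS factors recognise a short GGAA core that occurs in nearly every endothelial enhancer. Erg and Fli1 maintain the differentiated endothelial state, Ets1 and Ets2 are broadly expressed and respond to growth factor signalling, and Elk3 is a ternary complex factor that partners serum response factor. Gata2 is a zinc finger factor of endothelium and blood progenitors, and Tal1 binds E-boxes in a complex with Lmo2 and Ldb1 in the same lineages.

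Total counts per library ran from 15019891 to 23287155, and the least abundant member, Tal1, still had between 16 and 489 reads in each library. Endothelial markers were concentrated in the flushed libraries. The summed level of Cdh5, Pecam1, Tie1, Esam and Cldn5, used below as an endothelial index, was 9543 to 11489.7 CPM (counts scaled to library size after TMM over the 14 libraries) in the flushed fraction and 136 to 730.1 CPM in the left-over fraction. Smooth muscle markers summed to 278 to 646 CPM in the flushed libraries and 7097 to 9121 CPM in the left-over libraries. Adventitial fibroblast markers summed to 631 to 2884 CPM and 18564 to 25798 CPM. Among the flushed libraries, control 3 and knockout 1 had the highest fibroblast sums.

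Poldip2 itself was 46.3, 43.7, 48.3 and 59.8 CPM in the flushed controls and 36.5, 24.8, 25.6 and 21.5 CPM in the endothelial knockouts. Every knockout library lay below every control library. The log2 fold change was -0.89 (SE 0.16), short of the threshold (edgeR adjusted p = 0.270), although DESeq2 called it (adjusted p = 2.3e-04). In the left-over fraction the libraries titled floxed held 27.4 and 23.5 CPM, and those titled Poldip2-SMC-/- held 55.0, 51.8, 68.8 and 70.8 CPM. Poldip2 thus went against the labels there (log2 fold change 1.29, SE 0.20, edgeR adjusted p = 0.00886). Among genes of at least 1 FPKM in the deposited group mean concerned, and to a relative tolerance of 1e-06, the smooth muscle control mean in the authors' deposited table equalled the average of the 4 Poldip2-SMC-/- libraries in 14805 of 14805 genes. The smooth muscle knockout mean in the authors' deposited table equalled the average of the 2 floxed left-over libraries in only 1 of 14253 genes, so the deposited means match a plain exchange of labels for the control group and not for the knockout group. These 6 libraries are therefore called labelled control and labelled knockout. The comparison of fractions below weights the 4 groups equally, so its value does not change when the left-over labels are exchanged.

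Among the 10 members, Sox18 had the highest level in the flushed fraction. On the FPKM scale, which divides by gene length and so allows genes to be compared, Sox18 had 239 ± 40.4 FPKM (SD, n = 8), and no library overlapped those of Gata2, at 105 ± 10.9 FPKM (SD, n = 8). Gata2 and Sox7, at 88.0 ± 8.70 FPKM (SD, n = 8), overlapped in range, although Gata2 was the higher in all 8 libraries. No Sox17 library, at 63.6 ± 7.77 FPKM (SD, n = 8), reached any Sox7 value. Sox17 and Fli1, at 49.2 ± 8.52, overlapped in range, as did Fli1 and Elk3, at 34.8 ± 4.65 FPKM (SD, n = 8). Ets2 at 17.2 ± 2.29, Ets1 at 14.1 ± 1.23 and Erg at 12.5 ± 1.38 FPKM (SD, n = 8) overlapped one another in turn and lay below every Elk3 value. Tal1 was the lowest of the members, at 4.75 ± 0.536 FPKM (SD, n = 8). In the left-over fraction the order differed. Sox18, at 12.3 ± 6.91 FPKM, and Ets2, at 11.9 ± 2.69 FPKM (SD, n = 6), overlapped at the top, and Ets2 exceeded Gata2, at 5.40 ± 2.67, Sox7, at 5.19 ± 1.64, and Sox17, at 3.28 ± 2.08 FPKM (SD, n = 6). Tal1 was again the lowest, at 0.394 ± 0.140 FPKM (SD, n = 6), with no library reaching any Erg value.

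**Figure D1:**
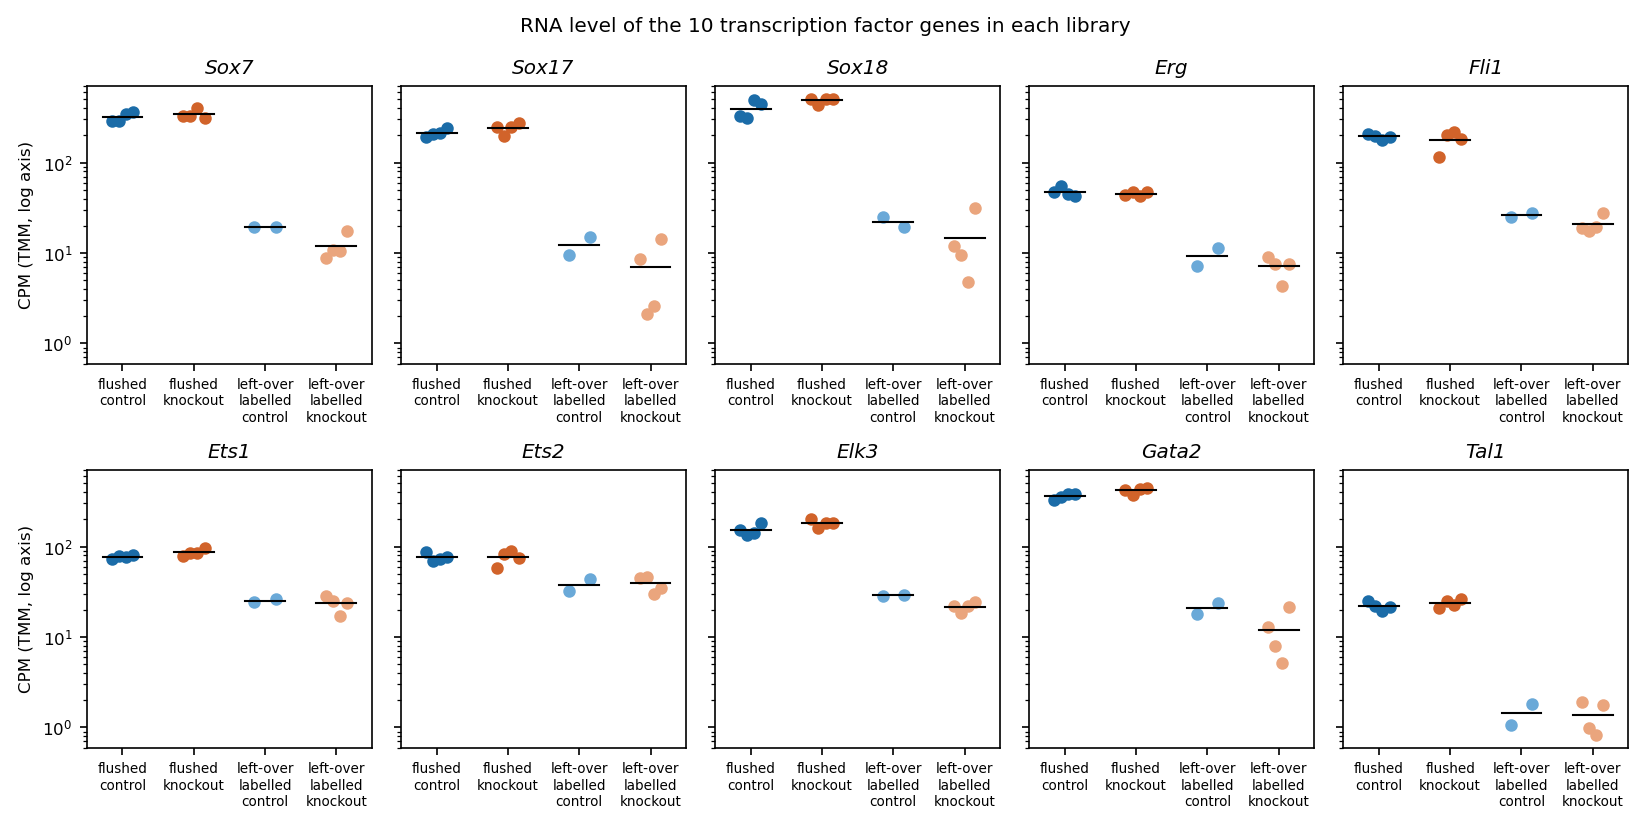
TMM-scaled level (CPM, log axis) of each member in all 14 libraries, by group; each point is a library and each bar the arithmetic mean of its group. The flushed groups lie above the left-over groups for every member, with the smallest gap for Ets2 (58.1 to 89.1 against 30.2 to 46.4 CPM).

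The first comparison asked how each factor was divided between the flushed lining and the artery that remained. All 10 members were higher in the flushed fraction, and for none did the libraries of the fractions overlap. The share of all genes without such overlap was not counted. In this comparison 36.6% of the 21464 genes tested were called higher in the flushed fraction and 44.4% lower, with a median log2 fold change over all genes of -0.22. The calls therefore set the members apart less than the sizes do. With no scaling beyond library size, 5488 genes were higher and 11923 lower, the all-gene median was -0.65, and all 10 members were still called higher. In bulk RNA, fewer cells of a type and less RNA per cell cannot be told apart.

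Sox7 lies at chr14:63943674-63950732 in GRCm38 on the forward strand. Sox7 had 289, 287, 346 and 359 CPM in the flushed controls and 331, 327, 398 and 312 CPM in the endothelial knockouts. It had 19.6 and 19.6 CPM in the left-over labelled control libraries and 8.78, 10.9, 10.6 and 17.7 CPM in those labelled knockout. The flushed level was 21.6-fold higher (log2 fold change 4.43, SE 0.17, edgeR adjusted p = 1.6e-12), and the left-over libraries held 4.39% of the flushed mean. Sox17 lies at chr1:4490928-4496413 on the reverse strand. Sox17, a SOXF factor of arterial endothelium, had 191, 206, 214 and 241 CPM in the flushed controls and 247, 196, 248 and 273 CPM in the knockouts. Its left-over values were 9.61 and 15.1 CPM under the control label and 8.52, 2.10, 2.62 and 14.4 CPM under the knockout label. Its spread within the left-over fraction was the widest of the members in proportion to the mean, and the log2 fold change was 4.61 (SE 0.48, edgeR adjusted p = 5.0e-06). Sox18 lies at chr2:181669836-181671640 on the reverse strand. Sox18 had 327, 309.5, 492 and 449 CPM in the flushed controls and 504, 437, 508 and 506 CPM in the knockouts. In the left-over fraction it had 24.9 and 19.3 CPM under the control label and 11.8, 9.61, 4.84 and 31.6 CPM under the knockout label. The log2 fold change of Sox18 was 4.61 (SE 0.45, edgeR adjusted p = 2.6e-06). Its highest left-over library lay far below its lowest flushed one. A stretch of 804 bases, 16.8% of the Sox17 exons, is shared with Gm37587 on the opposite strand, and since the strandedness of the libraries is unknown here, reads there cannot be assigned to either gene.

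Gata2 lies at chr6:88193891-88207030 on the forward strand. Gata2 had 324, 349, 377 and 382 CPM in the flushed controls and 421, 368, 436 and 444 CPM in the knockouts. Its left-over values were 17.8 and 24.0 CPM under the control label and 13.0, 7.99, 5.09 and 21.3 CPM under the knockout label. Its log2 fold change of 4.62 (SE 0.33, edgeR adjusted p = 7.7e-08) was the highest of the members, and 0.326% of all genes tested had one as high. Tal1 lies at chr4:115056426-115071755 on the forward strand. Tal1 had 25.0, 22.2, 19.2 and 21.3 CPM in the flushed controls and 20.8, 24.9, 22.7 and 26.2 CPM in the knockouts. It had 1.06 and 1.81 CPM in the left-over labelled control libraries and 1.91, 0.998, 0.823 and 1.77 CPM in those labelled knockout. The log2 fold change of Tal1 was 4.01 (SE 0.20, edgeR adjusted p = 3.1e-11), and 6.13% of its flushed mean was found in the left-over fraction.

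The ETS members differed less between the fractions than the SOX members, Gata2 and Tal1. Fli1 lies at chr9:32422204-32542861 on the reverse strand. Fli1 had 208, 196, 179 and 192 CPM in the flushed controls and 114, 199, 216 and 184 CPM in the knockouts. Its left-over values were 25.1 and 27.7 CPM under the control label and 18.8, 17.5, 19.4 and 27.4 CPM under the knockout label. Fli1 was 7.94-fold higher in the flushed fraction (log2 fold change 2.99, SE 0.16, edgeR adjusted p = 1.0e-10). Erg lies at chr16:95359169-95586593 on the reverse strand. Erg had 46.6, 54.5, 44.5 and 42.2 CPM in the flushed controls, 43.5, 47.1, 43.1 and 47.0 CPM in the knockouts, 7.11 and 11.4 CPM in the labelled control and 9.04, 7.46, 4.32 and 7.62 CPM in the labelled knockout libraries. Its flushed libraries were the tightest in proportion of the 10 genes together with those of Ets1, and its log2 fold change was 2.50 (SE 0.16, edgeR adjusted p = 3.8e-10). Elk3 lies at chr10:93247414-93311135 on the reverse strand. Elk3 had 154, 135, 142 and 181 CPM in the flushed controls, 199, 161, 182 and 183 CPM in the knockouts, 28.1 and 29.5 CPM in the labelled control and 21.8, 18.4, 21.9 and 24.5 CPM in the labelled knockout libraries. Its log2 fold change was 2.74 (SE 0.10, edgeR adjusted p = 1.1e-12). Elk3 shares 316 bases, 6.95% of its exons, with Cdk17 on the opposite strand.

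Ets1 and Ets2 had the smallest differences. Ets1 lies at chr9:32636221-32757820 on the forward strand. Ets1 had 71.9, 78.6, 76.5 and 79.8 CPM in the flushed controls, 79.2, 85.2, 84.8 and 97.0 CPM in the knockouts, 24.3 and 26.1 CPM in the labelled control and 28.3, 25.1, 17.2 and 24.0 CPM in the labelled knockout libraries. It was 3.34-fold higher in the flushed fraction (log2 fold change 1.74, SE 0.10, edgeR adjusted p = 1.9e-10). Ets2 lies at chr16:95702075-95721051 on the forward strand. Ets2 had 87.1, 69.6, 72.9 and 75.7 CPM in the flushed controls, 58.1, 82.6, 89.1 and 74.4 CPM in the knockouts, 32.1 and 43.7 CPM in the labelled control and 45.2, 46.4, 30.2 and 34.6 CPM in the labelled knockout libraries. It was 1.98-fold higher in the flushed fraction (log2 fold change 0.99, SE 0.13, edgeR adjusted p = 2.7e-06), the smallest difference among the members, and 19.3% of all genes tested had a log2 fold change as high. With library-size scaling the Ets2 value was 0.55 (edgeR adjusted p = 0.00238). A similar contrast in the authors' deposited table, which sets the smooth muscle control group against the endothelial control group, gave Gata2 the lowest value of the members, a log2 fold change of -4.80, and Ets2 the one nearest 0, at -0.93.

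The next comparison asked whether a member was lower in the left-over artery by the same factor as the endothelial index. Pecam1 gave most of this sum, with a flushed mean of 7668 CPM, ahead of Esam at 1129 CPM. Not every endothelial gene follows the index. Kdr, Plvap and Eng had log2 fold changes of 0.89, 2.11 and 2.42 between the fractions, beside a median of 4.40 over 35 endothelial genes. The left-over libraries held on average 3.70% of the flushed level of the endothelial index, from 1.29 to 6.97% in single libraries. Sox17 at 3.84%, Sox18 at 3.85%, Gata2 at 3.83% and Sox7 at 4.39% of their flushed means lay close to that share. Tal1 was at 6.13%, Fli1 at 12.2%, Elk3 at 14.4%, Erg at 17.0%, Ets1 at 29.6% and Ets2 at 50.8%.

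**Figure D2:**
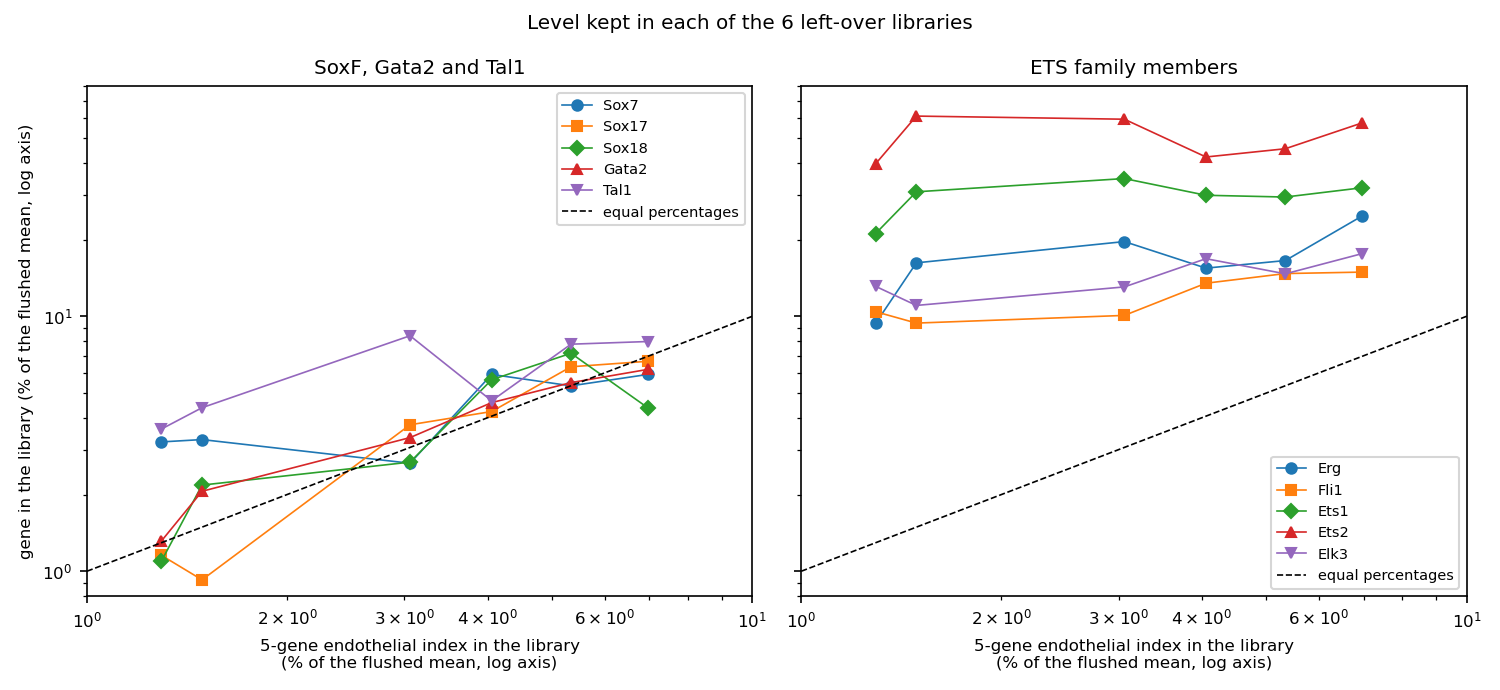
Level of each member in each of the 6 left-over libraries as a percentage of its flushed mean (vertical, log axis) against the same percentage for the endothelial index (horizontal, log axis); the dashed line marks equal percentages. Points of Sox17, Sox18 and Gata2 lie along the line, and those of the 5 ETS members lie above it, farthest for Ets2, which kept 39.6 to 61.0%.

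When library scaling was set by the endothelial index instead of TMM, the fractions did not differ past the threshold for 5 of the 10 members, and the other 5, all of them ETS genes, were lower in the flushed fraction relative to the index. Here 98.9% of the 21464 genes tested were called lower and 0.0233% higher, with a median log2 fold change of -5.15, so a call of lower is the rule for genes of this tissue and the members without a call are the exception to it. Per 1000 CPM of index, Gata2 was 32.8 to 42.0 with a median of 36.4 in the 8 flushed libraries and 32.9 to 51.2 with a median of 39.3 in the 6 left-over libraries. Of the 6 left-over libraries, 1 lay above every flushed one (log2 difference of flushed minus left-over -0.10, SE 0.33, edgeR adjusted p = 0.768). Sox17 was 18.9 to 23.9 with a median of 22.0 in the flushed and 13.5 to 26.6 with a median of 21.7 in the left-over libraries (0.01, SE 0.34, edgeR adjusted p = 0.988). Sox18 was 32.4 to 49.0 with a median of 43.2 and 26.4 to 61.6 with a median of 46.7 (-0.11, SE 0.33, edgeR adjusted p = 0.747). Sox7 was 27.2 to 38.3 with a median of 30.8 and 26.8 to 78.5 with a median of 38.8 (-0.45, SE 0.33, edgeR adjusted p = 0.166). With standard errors of 0.33 or 0.34 for these 4 genes, equality with the index was not shown. The edgeR fit shares spread between genes, so these errors are not each gene's own spread. Per 1000 CPM of index, the SD over the 6 left-over libraries was 6.13 for Gata2, 4.79 for Sox17, 14.7 for Sox18 and 22.5 for Sox7. The absence of a call therefore depends partly on the spread of other genes.

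Tal1 lay between the groups. It was 1.84 to 2.52 per 1000 CPM of index with a median of 2.24 in the flushed libraries and 2.49 to 6.40 with a median of 4.56 in the left-over libraries. Of the 6 left-over libraries, 4 lay above every flushed one. The edgeR test did not call it (-0.74, SE 0.47, adjusted p = 0.116), whereas an exact two-sided permutation test of the ratio, which was chosen after seeing the data, gave p = 9.99e-04. Without labelled knockout library 4 the edgeR value was -0.84 and the adjusted p 0.0259. Without that library Sox7 was also called, at -0.54 (edgeR adjusted p = 0.0292).

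Every left-over library exceeded every flushed library for each of the 5 ETS members per unit of index. How many of all genes were divided in this way was not counted, and 98.9% were called lower in the flushed fraction on this scale. The exact permutation test gave p = 3.33e-04 for each of the 5, the smallest that 3003 arrangements can give (10 tests were made). Fli1 rose from a median of 18.6 per 1000 CPM of index in the flushed libraries to 58.7 in the left-over libraries (log2 difference -1.89, SE 0.32, edgeR adjusted p = 5.3e-09). Erg rose from 4.21 to 22.5 (-2.32, SE 0.36, edgeR adjusted p = 8.4e-11), and Elk3 from 15.8 to 67.1 (-2.18, SE 0.32, edgeR adjusted p = 2.0e-11). Ets1 rose from 7.85 to 72.8 (-3.16, SE 0.33) and Ets2 from 7.21 to 108 (-3.92, SE 0.34), with edgeR adjusted p-values of 3.4e-21 and 7.6e-31. The spread of the index between libraries is shared by all genes and enters the spread of each gene on this scale. The SE of Ets1 was 0.10 with TMM and 0.33 here, and that of Elk3 was 0.10 and 0.32. Markers of smooth muscle (8 of 8), adventitial fibroblasts (8 of 8), macrophages (7 of 7) and adipocytes (7 of 7) were all called higher in the left-over fraction, and none of these markers was at 0 in any group. The part of those cells in the ETS values was not tested. In the left-over libraries macrophage markers summed to 3638 to 4996 CPM, against 28.7 to 826 CPM in the flushed libraries.

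The upstream sequences of Gata2 and Tal1, which lay nearest to the endothelial index outside the SOX group, and of Erg, which did not follow it, are shown to set this difference beside the DNA at their start sites. Each is the stretch of 250 bases before the annotated start from RefSeq, build GRCm38.p6, written 5′ to 3′ on the gene's strand, with GGAA or its complement TTCC and AGATAA or its complement TTATCT in capitals. RefSeq held 3 windows for Erg, 2 for Gata2 and 2 for Tal1, and the window nearest the gene start in the deposited data was used. The Gata2 stretch is chr6:88193641-88193890 on the forward strand, the Tal1 stretch chr4:115056176-115056425 on the forward strand and the Erg stretch chr16:95586594-95586843 on the reverse strand.
Gata2: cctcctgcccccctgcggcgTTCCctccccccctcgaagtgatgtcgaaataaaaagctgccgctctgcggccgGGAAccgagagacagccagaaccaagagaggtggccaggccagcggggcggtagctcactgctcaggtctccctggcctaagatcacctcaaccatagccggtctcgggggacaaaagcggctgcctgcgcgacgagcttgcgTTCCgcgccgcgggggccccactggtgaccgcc
Tal1: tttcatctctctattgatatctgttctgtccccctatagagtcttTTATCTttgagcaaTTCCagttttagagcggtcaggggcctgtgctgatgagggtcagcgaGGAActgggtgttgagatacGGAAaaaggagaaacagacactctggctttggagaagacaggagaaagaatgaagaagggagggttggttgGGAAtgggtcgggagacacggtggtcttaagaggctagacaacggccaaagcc
Erg: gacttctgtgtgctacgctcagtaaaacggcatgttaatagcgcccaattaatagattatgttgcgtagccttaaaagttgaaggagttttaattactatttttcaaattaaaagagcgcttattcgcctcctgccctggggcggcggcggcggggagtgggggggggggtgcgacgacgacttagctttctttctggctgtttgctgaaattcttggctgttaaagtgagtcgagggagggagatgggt

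The motifs searched on both strands were the ETS core GGAA, its longer form CCGGAA, the GATA motif AGATAA, the SOX motif AACAAT and the E-box form CAGATG. In the windows used, Tal1 held 4 GGAA matches and 1 AGATAA match, Gata2 held 3 GGAA matches and Erg held none of the 5 motifs. Matches in the other windows of these genes are not given. GGAA occurred in 93.4% of the 32817 upstream windows of the RefSeq table, with a median of 3 matches, so the counts of Gata2 and Tal1 are ordinary for this length. AGATAA occurred in 9.99%, CCGGAA in 12.0%, AACAAT in 9.42% and CAGATG in 14.5% of windows. Windows were matched for 5 of the 10 members. Of the others, Elk3 held 2 GGAA matches and Ets2 held 1. The sequences of Sox7, Sox17, Sox18, Fli1 and Ets1 were not used here. Among the 5 members with a window, the GGAA count was 3 or 4 in the 2 that were not called lower relative to the index. It was 0 to 2 in the 3 ETS genes that were. With 5 genes and 1 window each, these counts cannot tie the letters to the index result. A match in a window is a description of letters only.

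The endothelial knockout comparison asked whether loss of Poldip2 changed these factors in the flushed fraction. None of the 10 members was called. Of the 14800 genes tested, edgeR called 0% at an adjusted p under 0.05, 917 had an unadjusted p under 0.05, and DESeq2 called 65, none of them a member. Without endothelial knockout 1 edgeR called 20 genes, again without a member. The members' log2 fold changes ran from -0.13 for Fli1 to 0.30 for Sox18, with a median of 0.13 beside 0.01 over all genes. For 7 of the 10 they were above 0. The control and knockout ranges overlapped for every member. Unadjusted p-values under 0.05 were found for 2 members, Gata2 (log2 fold change 0.21, SE 0.09, edgeR adjusted p = 0.790) and Elk3 (0.23, SE 0.10, edgeR adjusted p = 0.790). Gata2 was 358 ± 27.0 CPM (SD, n = 4) in controls and 417 ± 33.9 CPM (SD, n = 4) in knockouts. Elk3 was 153 ± 20.4 and 181 ± 15.8 CPM (SD, n = 4 each).

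None of the other members had an unadjusted p under 0.05 in this comparison. Sox18, at 0.30 (SE 0.14), Sox17, at 0.17 (SE 0.11), Ets1, at 0.16 (SE 0.08), Tal1, at 0.10 (SE 0.11), and Sox7, at 0.08 (SE 0.11), were above 0 on the log2 scale without passing the test. Erg, at -0.07 (SE 0.10), and Ets2, at -0.02 (SE 0.14), were near 0. Fli1 was 114 CPM in endothelial knockout 1 and 179 to 216 CPM in the other 7 flushed libraries. That library also had the highest macrophage sum (826 CPM) and adipocyte sum (433 CPM) of the flushed libraries, and the part of this in its Fli1 value was not tested. Without it the log2 fold change of Fli1 was 0.037.

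**Figure D3:**
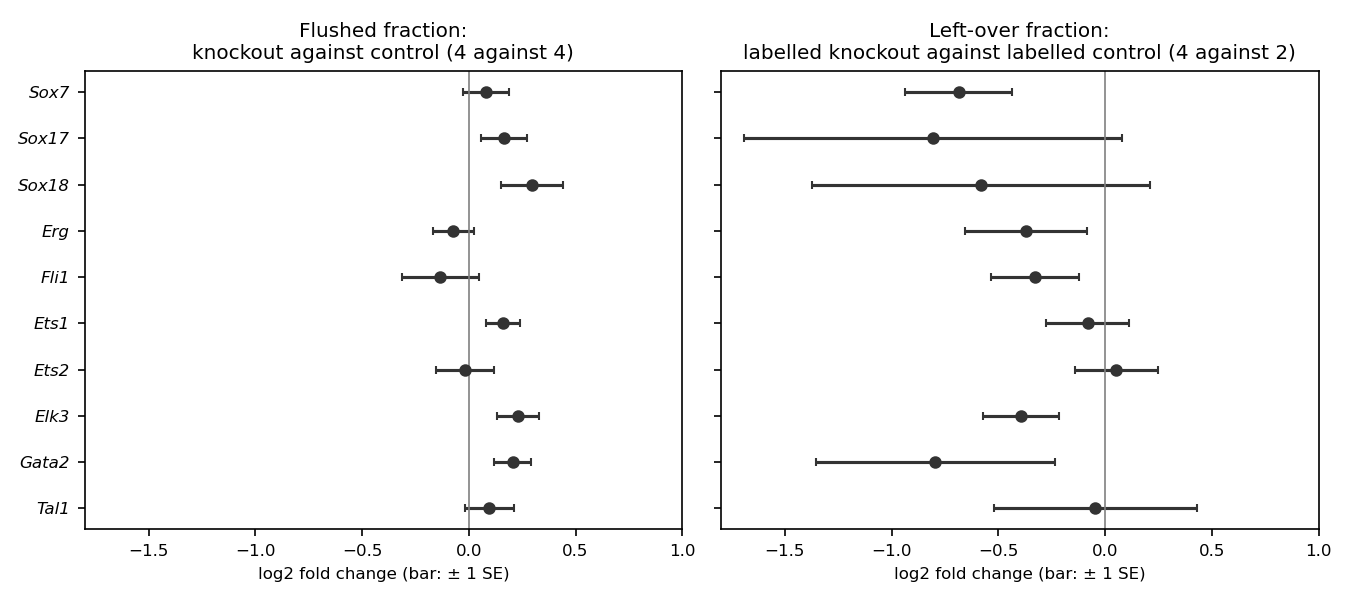
Log2 fold change of each member, knockout against control, in the flushed fraction (4 against 4 libraries) and in the left-over fraction by its labels (4 labelled knockout against 2 labelled control); bars are 1 SE of the edgeR fit. Values in the flushed fraction lie between -0.13 and 0.30, and those in the left-over fraction between -0.81 and 0.05 with wider bars.

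In the left-over artery, by the labels, none of the 10 members was called either, where 0.792% of the 20442 genes tested were. DESeq2 called none of the members. By edgeR 2 members had an unadjusted p under 0.05, beside 2119 of the 20442 genes tested. The log2 fold changes of labelled knockout against labelled control ran from -0.81 for Sox17 (SE 0.88) to 0.05 for Ets2 (SE 0.20), with a median of -0.38 beside 0.03 over all genes. Of the 10 values, 1 was above 0. With the labels exchanged, as the Poldip2 values would have it, each direction would be the opposite. How many of all genes had no overlap between the labels was not counted, so its absence does not set a member apart. Among the members, the libraries of the labels did not overlap for Sox7 (-0.69, SE 0.25, edgeR adjusted p = 0.306) and Elk3 (-0.39, SE 0.18, edgeR adjusted p = 0.457). The endothelial index was 425 and 730.1 CPM in the labelled control libraries and 321, 156, 136 and 559.5 CPM in the labelled knockout libraries. Its mean was lower under the knockout label, but its libraries overlapped between the labels, unlike those of Sox7 and Elk3. Scaled to the index, which was added after seeing the data, the log2 fold change of Sox7 was 0.50 and that of Elk3 0.88. No gene at all was called on that scale. The index averaged 578 CPM in the labelled control and 293 CPM in the labelled knockout libraries, so this scaling raises the values of genes in general. Without labelled knockout library 4, and with TMM, Sox7 was called at -0.95 (edgeR adjusted p = 0.0211).

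Clock genes also differed between these libraries. Of 14 clock genes tested, 6 were lower and 1 higher in the labelled knockout libraries, among them Dbp at -5.10 (edgeR adjusted p = 0.0106). Among the transcription factor lists, 1 gene was called in this comparison, Nr2f2, a nuclear receptor of venous endothelium and of mesenchymal cells (-1.19, SE 0.19, edgeR adjusted p = 0.0113).

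The difference between the knockout effects of the fractions was tested in a single model, and no member was called, where 0.256% of 21464 genes were. DESeq2 called none of the members. By edgeR 2743 of the 21464 genes tested had an unadjusted p under 0.05. Among them were 2 members, Elk3, at 0.65 (SE 0.17, edgeR adjusted p = 0.130), and Sox7, at 0.80 (SE 0.26, edgeR adjusted p = 0.211). With the left-over labels exchanged, the values were -0.16 and -0.61. Without labelled knockout library 4 the value of Sox7 was 1.05 (edgeR adjusted p = 0.0295).

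Other genes of the same families were divided between the fractions in both directions. Of the 17 further ETS genes tested, from 21 listed, 9 were higher in the flushed fraction and 6 lower, beside 36.6% and 44.4% of all genes. With so few genes, the counts for the ETS, SOX and GATA families are a description and are not set apart from those shares. Etv6, a repressor, was higher by 2.22 (SE 0.10), Erf, also a repressor, by 2.01 (SE 0.18) and Elk4, a ternary complex factor, by 1.52 (SE 0.13) on the log2 scale. Spi1, which encodes the macrophage factor PU.1, was lower (-4.19, SE 0.41), as were Etv1 (-3.87, SE 0.31) and Spic, also a macrophage factor (-3.26, SE 0.37). Of 8 further SOX genes tested, from 16 listed, 4 were higher and 1 lower. Sox13, a SOXD gene, had 94.2 ± 17.3 FPKM (SD, n = 8) in the flushed and 6.65 ± 1.84 FPKM (SD, n = 6) in the left-over libraries (4.19, SE 0.20). That flushed level lay between those of Gata2 and Sox7 and overlapped both. Sox9, a factor of cartilage and fibroblasts, was lower (-2.93, SE 0.29). Of 4 further GATA genes tested, Gata3, at 4.44 (SE 0.17), and Gata6, at 2.54 (SE 0.13), were higher and the blood cell factor Gata1 lower (-2.52, SE 0.43). Gata6 had 103 ± 13.1 FPKM (SD, n = 8) in the flushed fraction, overlapping Gata2.

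These family counts moved with the scaling, whereas the direction of each gene named above did not. With library size alone, 6 of the 17 ETS genes were higher and 7 lower, 3 of the 8 SOX genes were higher and 2 lower, and 2 of the 4 GATA genes were higher and 2 lower. Elk1, Elf2, Gabpa and Sox4 lost their call there.

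Of 9 genes listed with the Tal1 complex, not all of them direct partners, 8 were higher in the flushed fraction and 1 lower. Of all genes, 36.6% were higher and 44.4% lower. Tcf4, at 0.68 (SE 0.09), Tcf3, at 0.99 (SE 0.10), and Tcf12, at 1.05 (SE 0.09), differed far less than Tal1, at 4.01. Scaled to the endothelial index, 8 of the 9 were called lower and Tal1 was not. Cbfa2t3, a corepressor, was higher by 4.15 (SE 0.25), Zfpm1, the GATA cofactor FOG1, by 3.21 (SE 0.25) and Lmo2, the LIM-domain bridge of the complex, by 3.12 (SE 0.22). Lmo2 had 407 ± 83.4 FPKM (SD, n = 8), above every member, against 4.75 FPKM for Tal1. Runx1 was lower (-1.42, SE 0.17). Of 17 other endothelial transcription factors tested, 11 were higher and 3 lower. Zfp366, at 4.67 (SE 0.30), Epas1, the hypoxia-inducible factor of endothelium, at 4.25 (SE 0.18), and Bcl6b, at 4.11 (SE 0.40), had the largest values, and Nr2f2, at -4.71 (SE 0.44), Meox2, at -4.53 (SE 0.66), and the Notch target Heyl, at -3.98 (SE 0.31), were lower.

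Endothelial genes known to be bound or driven by these factors were mostly higher in the flushed fraction, 32 of 35, with 2 lower. Their median log2 fold change was 4.40. Over all genes 36.6% were higher and 44.4% lower. Vwf, which encodes von Willebrand factor, was higher by 5.05 (SE 0.27), Mmrn2, an endothelial matrix protein, by 4.99 (SE 0.38) and Nos3, endothelial nitric oxide synthase, by 4.96 (SE 0.37). The chemokine receptor gene Cxcr4 (-1.94, SE 0.38) and Angpt2, an angiopoietin ligand (-1.56, SE 0.41), were lower. Scaled to the endothelial index, 13 of these 35 were called lower, beside 98.9% of all genes, but the 35 include the 5 index genes, which set that scale and so could hardly be called. Gata3 (-0.38, SE 0.38) and Cbfa2t3 (-0.64, SE 0.33) were likewise uncalled on that scale. None of those tested was called in either knockout comparison.

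Within groups, the members fell into patterns of shared variation that differed between the fractions. The measure was Pearson's r of the deviations of log2 CPM from the group means, given as a description over libraries that share their scaling. Sox17 and Gata2 deviated together in both fractions, with r = 0.94 over the 8 flushed and 0.92 over the 6 left-over libraries. Sox18 and Gata2 gave 0.76 and 0.92. Fli1 and Ets2 deviated together in the flushed libraries (0.92) and not in the left-over libraries (-0.31). Erg and Sox18 deviated in opposite directions in the flushed libraries (-0.78) and in the same direction in the left-over libraries (0.50).

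**Figure D4:**
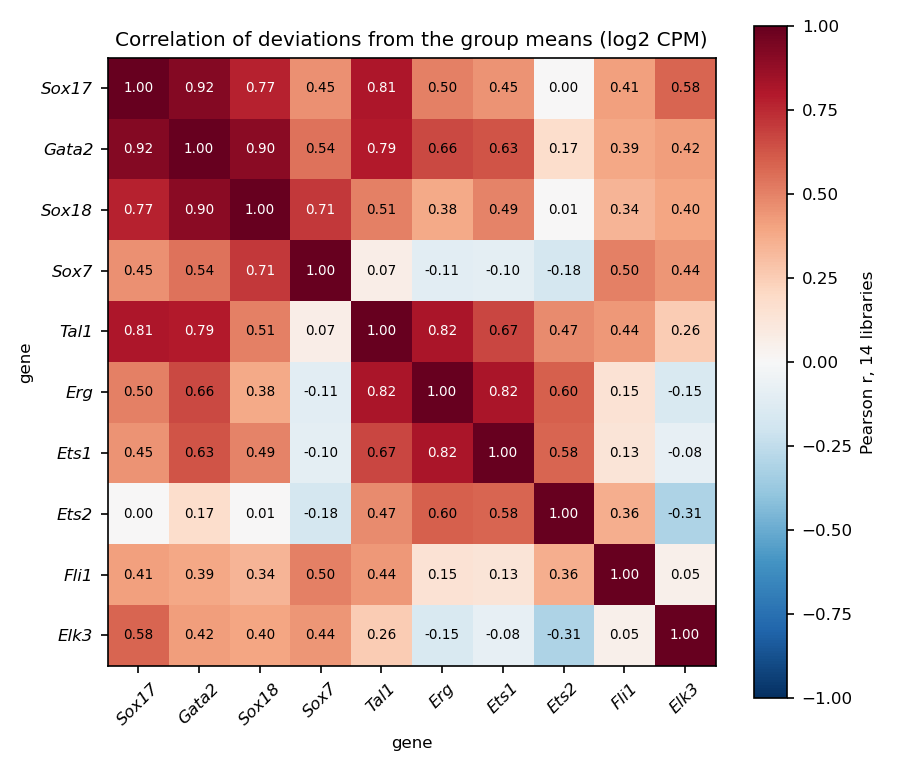
Pearson's r between members of the deviations of log2 CPM from group means over all 14 libraries; both axes list the 10 members and the colour scale runs over r. Sox17 and Gata2 form the darkest pair (0.92), next to Sox18 with Gata2 (0.90).

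Over all 14 libraries and 9625 genes with a mean of at least 10 CPM, the gene most like Gata2 was Bcam (r = 0.98, Spearman's rho = 0.97). Fli1 was most like Anxa3 (r = 0.97, rho = 0.95), also within the flushed libraries alone (0.99). Sox7 was most like Trim62 (r = 0.93, rho = 0.83), Sox18 like Klk8 (r = 0.93, rho = 0.48) and Elk3 like Mettl17 (r = 0.93, rho = 0.95). For Tal1, Ets2, Ets1 and Erg the highest values were lower. They were 0.91 for Tal1 with Selp, 0.90 for Ets2 with Atxn1, 0.89 for Ets1 with Unc13b and 0.88 for Erg with Vil1. Each named gene is the highest of 9625, and how high the best of so many unrelated genes would reach was not tested. Several of these rest on the left-over libraries: r within the flushed libraries was 0.15 for Tal1 with Selp, 0.25 for Erg with Vil1 and 0.34 for Sox18 with Klk8.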

How the data were processed

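RNA sequencing libraries from carotid arteries were analysed from a deposited gene table. Tools named in the submitters' processing notes, with no role or order, are STAR 2.5, TopHat, STAR-Fusion, HTSeq 0.6.1, edgeR 3.16.5 and DESeq2; the build named is mm9. Gene starts in the table lay within 5 kb of GENCODE M21 (GRCm38) for 97.2% of the 34490 identifiers found there, so coordinates are given in GRCm38. The authors deposited raw read counts per gene, which all tests here used. The deposited FPKM values equal, for 100% of nonzero entries and to a relative tolerance of 0.001, the counts divided by gene length and by the summed counts of the library. Group mean FPKM, log2 fold changes and p-values between groups were deposited by the authors with no tool stated. Other deposited columns, as the authors gave them, hold gene lengths and coordinates.

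The main test was edgeR 4.0.16 under R 4.3.3, by its quasi-likelihood F test (two-sided, robust dispersions, TMM, filterByExpr at a minimum count of 10 and 15 in total). P-values were adjusted by Benjamini-Hochberg over every gene tested, and a gene was called under 0.05. The knockout comparisons used their own libraries and the others all 14. Alternatives were DESeq2 1.42.0, other scalings and filters, omission of each library, and replicate blocks. The fit relative to the endothelial index replaced TMM by the summed counts of the index genes. The 10 members and all lists were chosen with earlier results of these data known, and the genes named from a list are up to 3 called genes at either end. Each test was run on simulated counts with known changes, drawn from a common mean profile with a fixed dispersion. The simulated libraries lacked the wide fraction differences and the index spread of the data. The fraction and index-scaled tests were therefore not checked under those conditions. No library pair looked duplicated (smallest chi-square per degree of freedom 8.79).

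Whether title numbers pair the libraries is not stated in the labels, and the main tests did not pair by them. Sample code numbers in the labels tie 3 flushed control libraries to 3 left-over libraries labelled knockout, which were taken as pairs in an alternative fit. Whether a shared number marks the same animal is not stated. If it does, the titles Poldip2-floxed and Poldip2-SMC-/- conflict for these pairs. Their deviations from group means correlated at 0.15, 0.27 and 0.22. These values can neither show nor exclude pairing, since flushed libraries of the same title number ran from -0.43 to 0.40. The main fraction tests and the permutation test did not use the pairs by code number. Blocking the fraction comparison on them changed no member's call. The gene most like Sox17 is not reported here.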

Additional observations from a re-analysis of the deposited data

Results flagged for a closer look

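Sox18 stood apart in a single flushed library. Endothelial knockout 2 had 437 CPM, and the other 3 endothelial knockouts had 504 to 508 CPM, so the gap to the nearest library was 0.940 of the range of the group, above Dixon's critical value for 4 samples. In all, 33 sets of 4 libraries were examined in this way, and chance alone marks about 1 in 20. The value lies within the range of the flushed controls (309.5 to 492 CPM).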

How the results depend on the processing

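All 10 members kept their direction and call in the fraction comparison under each of the 22 alternatives. For the knockout effects, numbers of called genes moved. In the flushed fraction edgeR called 14 genes with no filter, 0 to 20 with a library left out, 97 without control 3 and knockout 1, and DESeq2 called 65; no member was among them. Ets2 turned to 0.021 with no filter and to 0.068 without those libraries. In the left-over fraction the count was 397 with no filter, 427 by DESeq2, 41 to 260 with a library left out and 0 on the index scale; members called were 0 to 1 with a library left out. On the index scale the values turned to 0.50 for Sox7, 0.17 for Sox18, 0.90 for Erg, 0.90 for Fli1, 1.17 for Ets1, 0.88 for Elk3, 0.16 for Gata2 and 1.10 for Tal1. That scale raises the values of genes in general, since the index was on average lower in the labelled knockout libraries. A replicate block on title numbers was also fitted. Libraries of the same title number correlated at -0.43, 0.40, -0.37 and -0.12 in the flushed and 0.049 and 0.087 in the left-over fraction. These correlations cannot decide whether title numbers pair the libraries. With this block the left-over count was 2015 with 3 members called, Sox7 at -1.02, Sox18 at -1.06 and Fli1 at -0.56. Only title numbers 1 and 2 occur under both left-over labels, so that fit rests on few libraries. Ets1 turned to 0.061 there, and the difference between fractions gave 21 genes. That difference gave 89 genes at a minimum count of 50, 426 by DESeq2, 7 to 131 with a library left out (0 to 1 members) and 3 with labels exchanged. Exchanged, the values were -0.61 for Sox7, -0.65 for Sox17, -0.30 for Sox18, -0.43 for Erg, -0.47 for Fli1, 0.039 for Ets2, -0.16 for Elk3 and -0.60 for Gata2. Relative to the index, Sox17 was -0.075 with Pecam1 and Cdh5 as index and -0.18 with 5 other index genes, which also called Sox7 (-0.57) and Tal1 (-0.87). With a library left out, flushed knockout values ran from -0.11 to 0.098 for Ets2, -0.13 to 0.017 for Erg, -0.25 to 0.037 for Fli1 and -0.0085 to 0.13 for Sox7. The left-over values ran from -0.15 to 0.27 for Ets2, -0.38 to 0.37 for Tal1 and -0.19 to 0.034 for Ets1. The differences ran from -0.28 to 0.16 for Ets2, -0.047 to 0.63 for Erg and -0.26 to 0.51 for Tal1, and index-scaled values from -0.076 to 0.067 for Sox17 and -0.34 to 0.24 for Sox18. The cause was not tested. Depth limits Tal1, with 16 reads in its lowest library.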

Other observations

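The authors' deposited table gives its own knockout comparisons for the members, with groups that differ from the labels on the left-over side. In the authors' deposited table the log2 fold change of smooth muscle knockout against smooth muscle control ran from -0.07 for Ets2 to 0.47 for Sox7, whose deposited adjusted p was 0.222. The endothelial comparison in the authors' deposited table ran from -0.10 for Fli1 to 0.25 for Sox18. No member had a deposited adjusted p under 0.05 in either comparison. For the fractions, the authors' deposited table gave -4.66 for Sox7, -3.91 for Tal1, -2.66 for Erg and -1.65 for Ets1, smooth muscle control against endothelial control.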
